A study of Mus musculus with 47 samples.

Results

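The restriction of isoleucine and the restriction of leucine were set directly against each other in the brains of male 3xTg mice. The comparison took 3 of the 6 labelled male libraries of isoleucine-restricted mice (IleR 13, IleR 14 and IleR 17) and 3 of the 6 of leucine-restricted mice (LeuR 19, LeuR 20 and LeuR 21), and the Control-fed males did not enter the contrast. These are 6 of the 14 male libraries analysed, of 37 libraries analysed in all and 47 in the sample labels. They were chosen by sex and diet among the libraries with a column of expected counts, and the other 6 male libraries of these diets are not analysed here.

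All mice were homozygous 3xTg, a mouse model of Alzheimer's disease (AD) that carries human transgenes for mutant APP and mutant tau and a mutant presenilin 1 gene. At 6 months of age they were assigned by cage to amino acid-defined diets of equal energy, and they stayed on them for 9 months. The restricted diets held less isoleucine (IleR), less leucine (LeuR) or less valine (ValR) than the Control diet, with non-essential amino acids making up the difference. Brains were collected after a short fast. RNA came from the left hemisphere according to the methods of the study, whose results speak of the whole brain. A library is named here by its diet and its label number. The females compared later had the same genotype and diets (5 IleR and 6 LeuR libraries).

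Isoleucine, leucine and valine are the branched-chain amino acids (BCAAs), which mammals must take from food and which enter the brain through the large neutral amino acid transporter. When any of them is scarce, its uncharged tRNA activates the kinase GCN2 (gene Eif2ak4), which phosphorylates the initiation factor eIF2 alpha and starts the integrated stress response. Translation of the transcription factor ATF4 then goes up, and ATF4 switches on genes of amino acid synthesis, transport and tRNA charging. Leucine has a further sensing route, since it binds Sestrin2 and the leucyl-tRNA synthetase, which act on the growth regulator mTORC1. The first steps of breakdown, transamination and oxidative decarboxylation, are shared by the 3 BCAAs, and the later steps are separate.

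The libraries differed in more than diet. Total counts ranged from 12682687 to 25722333 and averaged 19147223 ± 5697603 in IleR and 17422084 ± 4818183 in LeuR (SD, n = 3 each; two-sided exact permutation p = 0.7, the smallest possible being 0.1). The mitochondrial share of counts was 4.35% ± 0.77 in IleR and 5.12% ± 0.54 in LeuR (SD, n = 3 each; two-sided exact permutation p = 0.2), and its part in the results was not tested. Every library held neuronal RNA, with a summed level of 12 pan-neuronal genes between 5891 and 8597 CPM (counts scaled to 1000000 per library). The summed level of 23 cortex and forebrain genes was 1419, 1065 and 1326 CPM in IleR 13, 14 and 17 and 612, 2234 and 1925 CPM in LeuR 19, 20 and 21, against 3800 to 12000 CPM in Control, so that all 6 libraries lay below the Control range. LeuR 21 stood apart on the first principal component, which held 51.6% of the variance. It had 1379 counts of the hypothalamic peptide gene Hcrt against at most 4 in any of the other 5 libraries, a summed level of hypothalamic genes of 923 CPM against 10.4 to 52.1, and 0 counts of Gabra6, a receptor gene of cerebellar granule cells that had at least 703 counts in the others. LeuR 19 stood apart on the second component, with 24.6% of the variance, a summed level of blood genes of 19663 CPM against 1442 to 6788 and of choroid plexus genes of 7669 CPM against 289 to 2921. Results that rest on LeuR 19 or LeuR 21 are therefore also given without them.

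**Figure D1:**
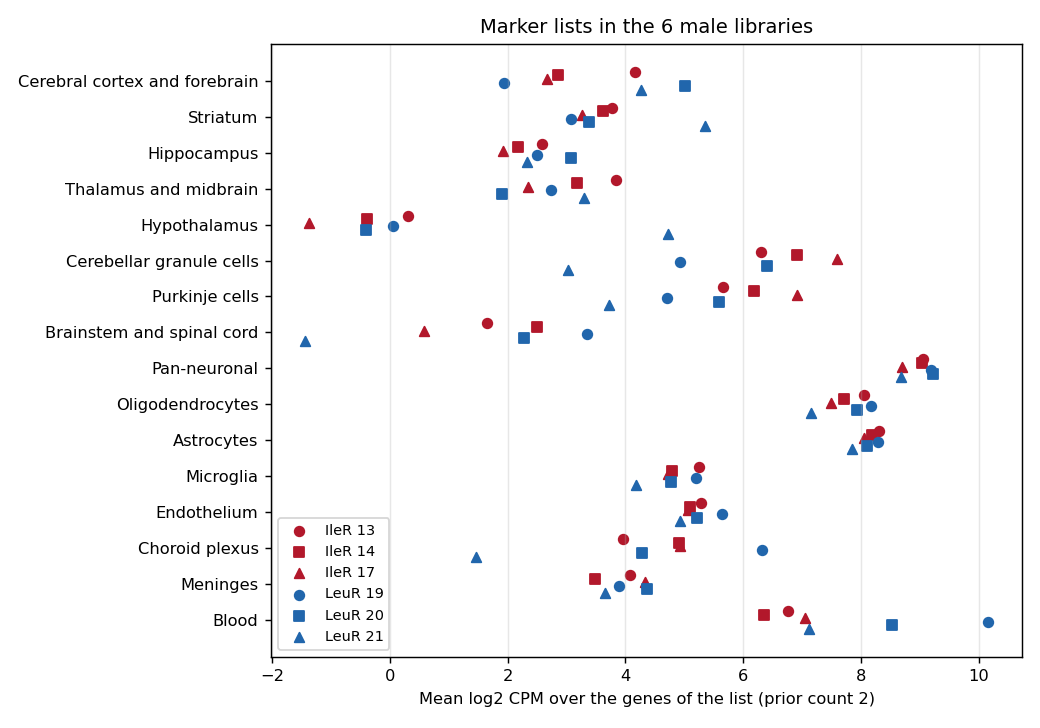
Mean log2 CPM over the genes of each marker list (horizontal axis) in the 6 male libraries, with 1 point per library, red for IleR and blue for LeuR. LeuR 21 lies far above the other 5 libraries for hypothalamic genes and below them for cerebellar, brainstem and choroid plexus genes, and LeuR 19 lies highest for blood and choroid plexus genes.

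No gene passed the threshold between IleR and LeuR. In edgeR's quasi-likelihood test of all 14 male libraries, 0 of 22197 genes were higher and 0 were lower in IleR-fed males at an adjusted p of 0.05, and the smallest adjusted p was 0.193. At an unadjusted p under 0.05 there were 1457 genes higher in IleR (6.56%) and 1055 lower (4.75%). This balance moved with single libraries, with 1067 higher and 1361 lower without LeuR 19, 723 and 593 without IleR 17 and 1164 and 651 without IleR 14, and 305 and 471 without both LeuR 19 and LeuR 21. limma voom also called 0 genes, whereas DESeq2 called 79 higher (0.356%) and 28 lower (0.126%). The median log2 fold change of all genes, IleR relative to LeuR, was -0.03, and 46.0% of genes lay above 0. Every IleR library lay above every LeuR library for 2083 genes (9.38% of those tested) and below for 1530 (6.89%). None of the values below passed the threshold of the edgeR test, so they are given as levels and intervals.

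The genes with the smallest p-values were led by a stress response factor and a cholesterol transporter. Atf5 (chr7:44812256-44816658, minus strand, GRCm38), a transcription factor of the integrated stress response, was at 49.4, 69.4 and 64.5 CPM in IleR 13, 14 and 17 and at 33.6, 32.2 and 24.6 CPM in LeuR 19, 20 and 21. Abca1 (chr4:53030787-53159895, minus strand), which exports cholesterol from cells, was at 94.5, 86.2 and 94.0 CPM in IleR and at 50.4, 51.9 and 34.9 CPM in LeuR. For both genes the lowest IleR library was well above the highest LeuR library.

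Atf5 was 2.03-fold higher in IleR (95% interval 1.60 to 2.57, adjusted p = 0.193; DESeq2 adjusted p = 5.71e-05). Its Control libraries, at 31.5 to 37.2 CPM, and its ValR libraries, at 32.8 to 45.4 CPM, lay below the IleR libraries too. Abca1 was 2.00-fold higher (1.58 to 2.55, adjusted p = 0.193; DESeq2 adjusted p = 5.71e-05), with Control at 42.8 to 55.1 CPM beside the LeuR values and ValR at 77.3 to 107 CPM beside the IleR values. The log2 fold change of Atf5 was 0.88 without LeuR 21 and 1.11 without LeuR 19, and that of Abca1 0.83 and 1.08.

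The other 3 genes that led among those higher in IleR were Cntnap5b, Pcm1 and Uvssa. Cntnap5b, a neuronal cell adhesion gene of the neurexin superfamily, was at 13.5, 16.0 and 18.2 CPM in IleR and 3.76, 5.53 and 4.23 CPM in LeuR, 3.55-fold higher (2.06 to 6.09). Pcm1, a scaffold protein of the granules around the centrosome, was at 123, 129 and 123 CPM against 82.1, 93.1 and 89.3 CPM. Uvssa, a factor of transcription-coupled DNA repair, was at 26.5, 30.4 and 28.0 CPM against 19.5, 19.9 and 20.5 CPM. Pcm1 and Uvssa were each 1.42-fold higher, and each of these 3 genes had an adjusted p of 0.356.

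Among the 5 that led in the other direction were Mvk and Sqle, both enzymes of cholesterol synthesis, and Pfkl, the liver-type phosphofructokinase of glycolysis. Mvk was at 15.6, 17.2 and 15.3 CPM in IleR and 25.2, 20.4 and 23.7 CPM in LeuR, and Sqle at 58.6, 52.0 and 39.3 CPM against 89.5, 71.1 and 81.4 CPM. Pfkl was at 108, 104 and 108 CPM in IleR against 139, 139 and 171 CPM in LeuR. IleR libraries lay wholly below LeuR libraries for these 3, at 0.694, 0.619 and 0.712 of the LeuR level.

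The last pair were Nop10, a component of the ribonucleoprotein that modifies ribosomal RNA, at 22.3, 21.4 and 22.7 CPM against 31.5, 27.3 and 31.3 CPM, and Dad1, a subunit of the oligosaccharyltransferase, at 41.3, 42.2 and 44.9 CPM against 63.0, 55.6 and 59.6 CPM. These were 0.737 and 0.720 of the LeuR level. DESeq2 called all 10 of these genes. Each of the 10 had the same direction without LeuR 21, without LeuR 19 and with the region score described below as a covariate. The log2 fold change closest to 0 in these 3 fits was that of Pfkl, at -0.38 with the covariate.

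**Figure D2:**
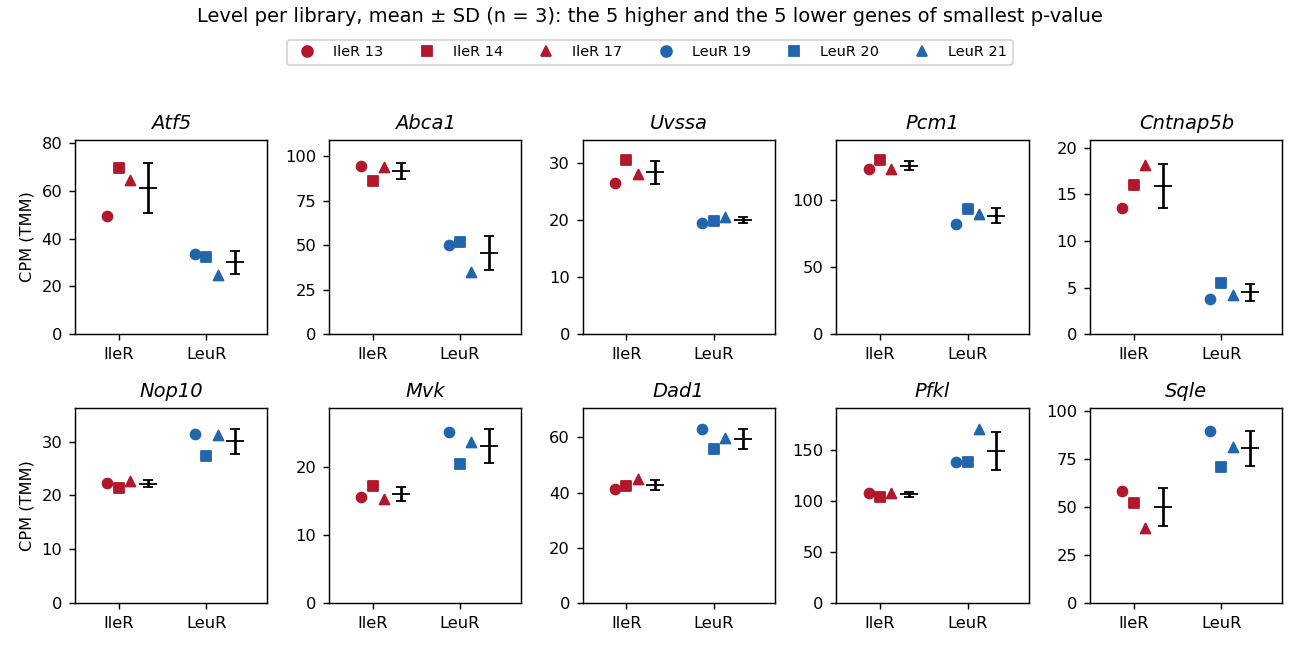
CPM after TMM normalization (vertical axes, from 0) of the 5 genes higher and the 5 genes lower in IleR with the smallest p-values, with 1 point per library and the mean ± SD (n = 3) beside each group. IleR and LeuR libraries do not overlap for any of the 10 genes, and none passed an adjusted p of 0.05 in edgeR.

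Genes of the integrated stress response mostly had higher values in IleR than in LeuR. Of 32 genes of the list, 27 had a log2 fold change above 0, with a median of 0.36 against -0.03 over all genes tested. Every IleR library lay above every LeuR library for 15 of the 32, beside 9.38% of all genes, and below for 1, beside 6.89%. At an unadjusted p under 0.05, 13 of the 32 were higher and 0 lower, beside 6.56% and 4.75% of all genes. DESeq2 called 4 (Atf5, Shmt2, Asns and Pycr1), all higher, beside 0.356% of all genes called higher, and edgeR called 0. Atf5, Asns, Sesn1, Sesn2, Sesn3, Lars, Iars, the enzymes of the leucine and isoleucine branches and the members of highest level in each list come from a rule, and the other list members named from here on were picked after their values were seen.

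The promoters of 4 members are printed because ATF4 and its partners are known to bind a composite element of the form TGATGNAA, which was searched on both strands from 250 bases before to 50 bases after the start of each gene (RefSeq, GRCm38.p6, printed on the gene's own strand). Capitals mark a match. Asns, at chr6:7693160-7693459 (minus strand), holds TGATGAAA 23 bases before its start. Pycr1, at chr11:120643699-120643998 (minus strand), holds TGATGCAA 103 bases before its start, and Fgf21, at chr7:45615441-45615740 (minus strand), holds the reverse complement TTGCATCA 139 bases before. Atf5, at chr7:44816609-44816908 (minus strand), the gene with the smallest p-value, holds none in this window.
Asns: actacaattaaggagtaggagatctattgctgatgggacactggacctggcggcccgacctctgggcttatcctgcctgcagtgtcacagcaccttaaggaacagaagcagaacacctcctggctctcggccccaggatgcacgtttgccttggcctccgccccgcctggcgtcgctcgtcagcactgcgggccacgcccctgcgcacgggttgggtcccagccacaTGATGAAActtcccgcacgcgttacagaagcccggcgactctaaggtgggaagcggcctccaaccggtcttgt
Pycr1: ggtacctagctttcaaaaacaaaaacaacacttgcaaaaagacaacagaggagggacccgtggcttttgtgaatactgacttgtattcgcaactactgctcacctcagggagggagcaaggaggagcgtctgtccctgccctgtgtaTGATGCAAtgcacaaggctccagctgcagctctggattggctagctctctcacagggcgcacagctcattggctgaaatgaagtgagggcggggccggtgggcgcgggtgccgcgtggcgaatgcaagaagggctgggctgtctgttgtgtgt
Fgf21: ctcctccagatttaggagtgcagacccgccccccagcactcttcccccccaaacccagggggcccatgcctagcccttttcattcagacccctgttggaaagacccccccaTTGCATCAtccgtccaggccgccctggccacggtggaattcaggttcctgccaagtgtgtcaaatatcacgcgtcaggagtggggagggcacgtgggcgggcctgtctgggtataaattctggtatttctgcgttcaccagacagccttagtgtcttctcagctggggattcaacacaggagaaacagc
Atf5: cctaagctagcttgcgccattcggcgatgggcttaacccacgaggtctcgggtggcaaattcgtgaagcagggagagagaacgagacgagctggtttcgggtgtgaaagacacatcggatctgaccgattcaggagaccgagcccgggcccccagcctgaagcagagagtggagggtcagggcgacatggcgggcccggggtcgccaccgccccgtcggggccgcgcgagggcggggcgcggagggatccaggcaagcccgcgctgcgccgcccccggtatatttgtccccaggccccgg

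The element was present in 8 of the 30 stress response genes with a listed promoter (26.7%) and in 1304 of all 32851 promoters (3.97%). It was present in 4 of the 14 members whose IleR libraries all lay above the LeuR libraries (28.6%) and in 4 of the other 16 (25.0%), and the difference was not tested. A match is a description of the letters and does not show that the element is bound in these brains.

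Above ATF4, the 4 kinases and the initiation factor had log2 fold changes between -0.14 and 0.24. Eif2ak3, the kinase PERK of the endoplasmic reticulum, was at 34.6, 38.6 and 40.6 CPM in IleR and 34.0, 34.5 and 27.5 CPM in LeuR, wholly above, while Eif2s1, which encodes eIF2 alpha, was at 29.5, 31.6 and 31.9 CPM against 32.8, 32.7 and 34.9 CPM, wholly below. Eif2ak4, which encodes the amino acid sensor GCN2, was at 31.6, 36.3 and 38.6 CPM in IleR and 30.6, 33.7 and 33.1 CPM in LeuR, a log2 fold change of 0.13 (95% interval -0.12 to 0.38). Atf4 itself was at 101, 110 and 127 CPM against 124, 116 and 86.6 CPM. The libraries of the 2 diets overlapped for Atf4, with a log2 fold change of 0.05 (-0.28 to 0.37, adjusted p = 0.936), and mRNA levels say nothing of its translation. Ddit3, the pro-apoptotic factor CHOP, was at 16.2, 20.5 and 16.2 CPM against 13.8, 15.0 and 13.8 CPM.

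The 9 genes of amino acid synthesis all had a log2 fold change above 0, with a median of 0.48, and for 5 of them the IleR libraries lay wholly above the LeuR libraries, beside 9.38% of all genes. Asns, asparagine synthetase, was at 117, 153 and 120 CPM in IleR and 93.7, 90.7 and 79.4 CPM in LeuR, 1.48-fold higher (1.24 to 1.77, adjusted p = 0.356; DESeq2 adjusted p = 0.0189). Shmt2, the mitochondrial enzyme that splits serine into glycine and a one-carbon unit, was at 38.0, 43.5 and 38.2 CPM against 25.5, 29.2 and 20.4 CPM. Pycr1, the last enzyme of proline synthesis, was at 3.48, 3.73 and 3.73 CPM against 1.57, 1.61 and 1.98 CPM, a log2 fold change of 1.08 (0.45 to 1.72).

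Serine synthesis followed the same order for 2 of its 3 enzymes. Phgdh, the first enzyme, was at 102, 106 and 86.9 CPM in IleR and 73.1, 67.4 and 71.6 CPM in LeuR. Psph, the last, was at 14.8, 19.9 and 19.3 CPM against 13.5, 12.8 and 11.9 CPM. Psat1, between them, overlapped, at 192, 177 and 142 CPM against 188, 132 and 92.7 CPM.

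Of the feedback genes, Sesn2, the leucine-binding Sestrin, was at 23.5, 38.4 and 28.4 CPM in IleR and 22.8, 20.1 and 15.4 CPM in LeuR (log2 fold change 0.63, 0.23 to 1.04). Trib3, a pseudokinase that restrains ATF4, was at 1.92, 1.54 and 2.19 CPM against 0.985, 0.845 and 1.24 CPM, with no overlap. Chac1, which degrades glutathione, overlapped, since LeuR 19 at 11.1 CPM was above IleR 13 at 10.1 CPM. Stc2, a secreted glycoprotein, was at 4.53, 5.80 and 5.92 CPM against 3.72, 2.61 and 2.37 CPM.

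Fgf21, a hormone that the liver secretes under amino acid restriction, was barely detected. It had 8, 25 and 5 counts in IleR 13, 14 and 17 and 2, 1 and 1 in LeuR 19, 20 and 21. The ratio of the summed counts, scaled to depth, was 8.47 (counting interval 3.05 to 32.7), with every LeuR library at or under the floor of 3 counts.

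The median of the 32 genes was 0.30 without LeuR 21, where 26 were above 0, 0.49 without LeuR 19, where 30 were above 0, and 0.40 without both, where 27 were above 0. With the region score as a covariate the median was 0.38 and 26 were above 0. Without LeuR 21 the IleR libraries lay above both other LeuR libraries for 16 of the 32, beside 15.4% of all genes, and below for 2, beside 13.7%. The summed level of the list was 1364, 1546 and 1376 CPM in IleR, 1276, 1167 and 1014 CPM in LeuR, 1110 to 1220 CPM in the 4 Control libraries and 1170 to 1400 CPM in the 4 ValR libraries.

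**Figure D3:**
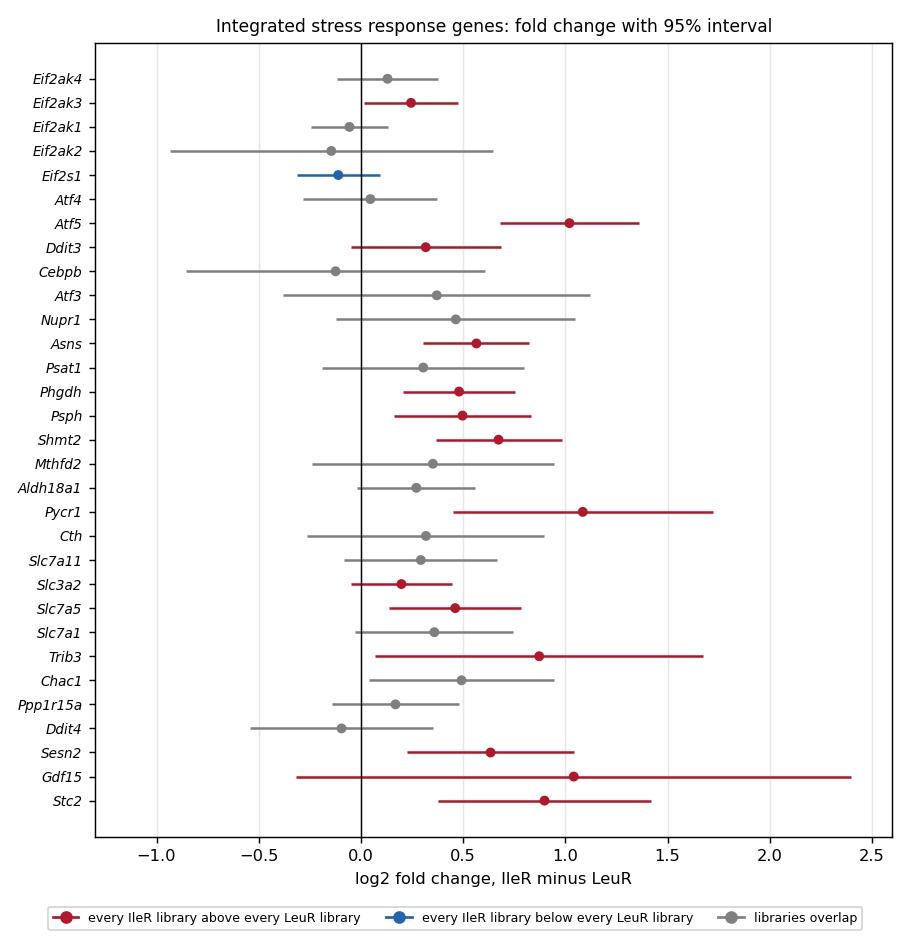
Log2 fold change, IleR relative to LeuR (horizontal axis), with its 95% interval for the 31 integrated stress response genes above the floor of counts, in order of role from the kinases at the top to the hormones at the bottom. Red points, most of them from Atf5 downwards, mark genes whose IleR libraries all lie above the LeuR libraries, and of the kinases only Eif2ak3 is among them.

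Of 23 cytosolic aminoacyl-tRNA synthetase genes, which load amino acids onto tRNAs and include 3 scaffold genes, 14 had a log2 fold change above 0, with a median of 0.14. IleR libraries lay wholly above LeuR libraries for 6 (Aars, Cars, Eprs, Lars, Mars and Yars) and wholly below for 3 (Hars and the scaffold genes Aimp2 and Eef1e1), beside 9.38% and 6.89% of all genes. Lars, the synthetase for leucine, was at 53.3, 62.6 and 52.0 CPM in IleR and 45.2, 46.0 and 42.6 CPM in LeuR, 0.33 on the log2 scale (0.12 to 0.54, adjusted p = 0.356). Iars, the synthetase for isoleucine, was at 92.3, 108 and 90.8 CPM against 104, 86.2 and 68.6 CPM, 0.17 on the log2 scale (-0.11 to 0.45, adjusted p = 0.646). The diets thus overlapped for the synthetase of isoleucine and not for that of leucine, and the difference between these 2 genes was not tested.

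Mars, the synthetase for methionine, was at 69.3, 90.0 and 87.3 CPM against 58.3, 63.9 and 57.3 CPM. Mars was the 1 member that DESeq2 called, beside 0.356% of all genes called higher. Cars, for cysteine, was at 52.3, 85.2 and 60.0 CPM against 47.3, 47.9 and 42.7 CPM. The list median was 0.12 without LeuR 21 and 0.13 without LeuR 19.

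Of 13 neutral amino acid transporter genes 9 had a log2 fold change above 0, with a median of 0.12 that was -0.01 without LeuR 21. IleR libraries lay wholly above LeuR libraries for 3 (Slc7a5, Slc3a2 and Slc38a1) and wholly below for 1 (Slc43a1), beside 9.38% and 6.89% of all genes. Slc7a5 and Slc3a2 are also counted in the stress response list. Slc7a5, the exchanger LAT1 through which BCAAs cross the blood-brain barrier, was at 98.6, 138 and 108 CPM in IleR and 93.6, 84.1 and 73.1 CPM in LeuR. Its partner Slc3a2 was at 127, 140 and 128 CPM against 119, 119 and 106 CPM. Slc38a1, a sodium-coupled glutamine transporter of neurons, was at 439, 509 and 525 CPM against 412, 349 and 333 CPM, 0.43 on the log2 scale (0.11 to 0.75), and Control lay at 240 to 351 CPM. Slc43a1, the uniporter LAT3, was barely detected, with 3, 4 and 3 counts in IleR and 19, 3 and 5 in LeuR.

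The enzymes of BCAA breakdown had log2 fold changes between -0.21 and 0.39. Of 28 genes 16 had a log2 fold change above 0, with a median of 0.01, and IleR libraries lay wholly above LeuR libraries for 2 (Mccc1 and Pcca) and wholly below for 1 (Acat1), beside 9.38% and 6.89% of all genes. At the shared transamination step, Bcat1 was at 183, 197 and 145 CPM in IleR and 232, 163 and 146 CPM in LeuR, and Bcat2 at 12.6, 11.1 and 16.6 CPM against 12.9, 12.4 and 13.3 CPM. The 6 genes of the branched-chain ketoacid dehydrogenase and of its kinase and phosphatase had log2 fold changes between -0.10 and 0.07.

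In the leucine branch, Mccc1, a subunit of methylcrotonyl-CoA carboxylase, was at 46.3, 48.7 and 53.5 CPM in IleR and 38.2, 38.9 and 36.3 CPM in LeuR, 0.39 on the log2 scale (0.15 to 0.63, adjusted p = 0.356). Its partner subunit Mccc2 overlapped, at 20.9, 22.0 and 23.1 CPM against 19.7, 18.3 and 24.3 CPM. Ivd, the dehydrogenase that opens this branch, was at 99.3, 109 and 108 CPM against 100, 103 and 108 CPM, a log2 fold change of 0.03 (-0.23 to 0.28).

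In the isoleucine branch, Acadsb, the dehydrogenase that opens it, was at 85.7, 86.0 and 86.9 CPM in IleR and 89.3, 78.0 and 88.4 CPM in LeuR, a log2 fold change of 0.02 (-0.18 to 0.21). Hsd17b10, the next dehydrogenase, was at 17.7, 18.9 and 18.3 CPM against 20.2, 19.8 and 18.3 CPM. Acat1, the thiolase that ends the branch and that also acts on ketone bodies, was at 80.8, 82.3 and 79.5 CPM against 97.1, 90.8 and 92.7 CPM, -0.21 on the log2 scale (-0.38 to -0.04, adjusted p = 0.390). The intervals of the entry enzymes reached no further from 0 than 0.28 for Ivd and 0.21 for Acadsb.

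**Figure D4:**
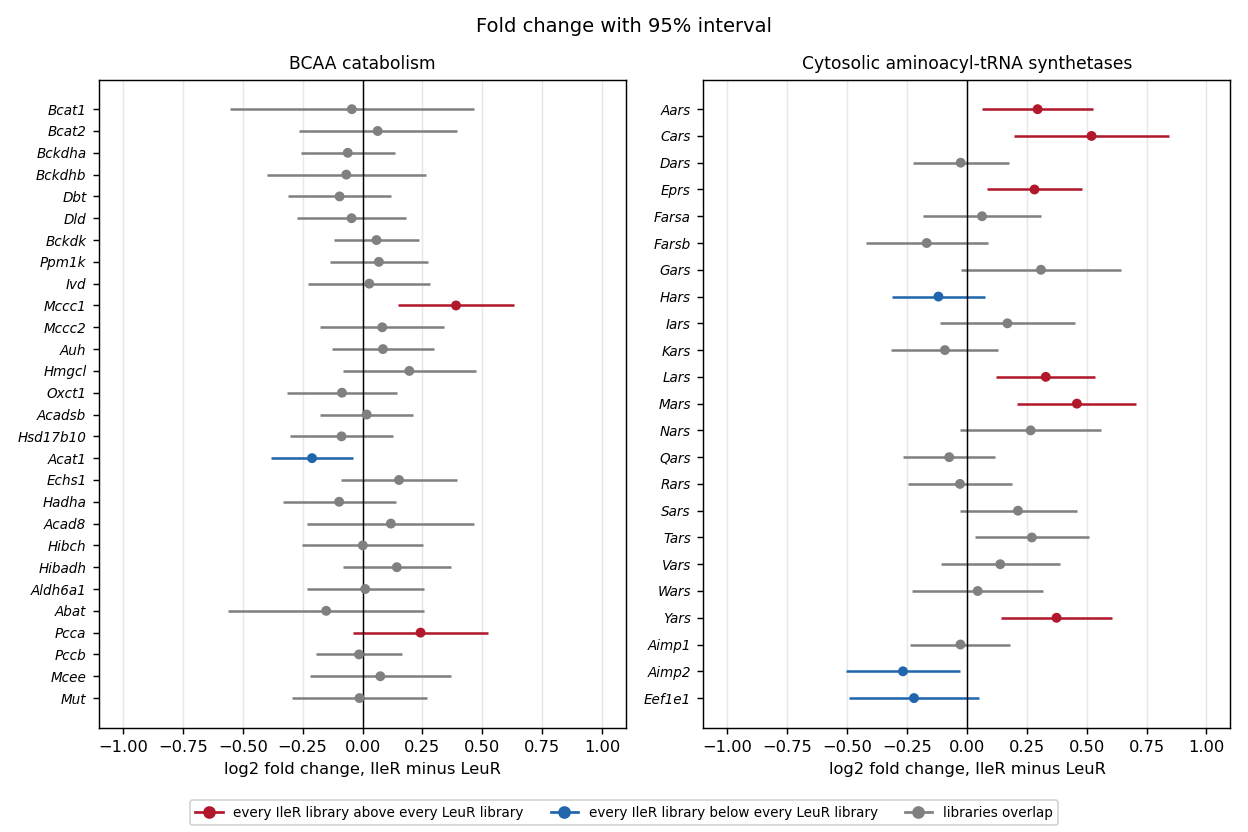
Log2 fold change, IleR relative to LeuR (horizontal axes), with its 95% interval for the genes of BCAA catabolism (left) and the cytosolic aminoacyl-tRNA synthetases with their scaffold genes (right). The catabolic genes centre on 0, with Mccc1 and Pcca wholly above and Acat1 wholly below, while 6 synthetases lie wholly above and 3 genes wholly below.

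Of 43 genes of amino acid sensing and mTORC1, 22 had a log2 fold change above 0, with a median of 0.01. IleR libraries lay wholly above LeuR libraries for 5 (Sesn2, Lars, Slc38a9, Fnip2 and Ulk1) and wholly below for 1 (Lamtor2), beside 9.38% and 6.89% of all genes. Sesn2 is also counted in the stress response list, Lars in the synthetase list and Ulk1 in the autophagy list. Of the Sestrins, Sesn1 was at 49.2, 52.3 and 77.1 CPM in IleR and 45.3, 52.3 and 45.4 CPM in LeuR, and Sesn3 at 190, 199 and 188 CPM against 134, 160 and 197 CPM. The diets overlapped for both, unlike Sesn2. Mtor, the kinase itself, was at 153, 152 and 149 CPM against 149, 152 and 152 CPM, a log2 fold change of 0.01 (-0.15 to 0.16).

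Of 25 autophagy genes 11 had a log2 fold change above 0, with a median of -0.03 and 3 wholly above (Ulk1, Rb1cc1 and Nbr1) against 4 wholly below (Atg101, Becn1, Gabarapl1 and Optn), beside 9.38% and 6.89% of all genes. Ulk1, the initiating kinase, was at 112, 125 and 114 CPM in IleR and 98.6, 99.3 and 99.6 CPM in LeuR, and Gabarapl1, a protein of the autophagosome membrane, at 414, 402 and 323 CPM against 488, 439 and 549 CPM. The cargo receptor Sqstm1 overlapped, at 393, 397 and 346 CPM against 450, 392 and 522 CPM.

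Of 23 genes of amyloid and tau 11 had a log2 fold change above 0, with a median of -0.03, and 1 lay wholly above (Sorl1) and 2 wholly below (Mme and Cdk5), beside 9.38% and 6.89% of all genes. App, the amyloid precursor, was at 1750, 1760 and 1600 CPM in IleR and 1930, 1750 and 1840 CPM in LeuR. Sorl1, a sorting receptor of the amyloid precursor, was at 530, 610 and 780 CPM against 529, 522 and 185 CPM, so that IleR 13 and LeuR 19 lay almost level. Whether reads of the human transgenes count towards the mouse genes was not tested. Apoe, the main lipid carrier of the brain, overlapped at 2320, 2030 and 2050 CPM against 2410, 1890 and 2020 CPM.

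Regional markers were measured in bulk tissue, and no member passed the edgeR threshold. Fewer cells of a type, less RNA per cell and a tissue piece with other brain regions cannot be told apart there. All 15 Purkinje cell genes and all 15 cerebellar granule cell genes had a log2 fold change above 0, with medians of 1.25 and 1.47, and IleR libraries lay wholly above for 8 and 2 of them, beside 9.38% of all genes. The summed Purkinje level was 2060, 2837 and 5044 CPM in IleR 13, 14 and 17 and 834, 1805 and 656 CPM in LeuR 19, 20 and 21. Itpr1, the calcium release channel abundant in Purkinje cells, was at 1050, 1420 and 2660 CPM against 339, 856 and 139 CPM. Rora, a factor these cells need, was at 149, 180 and 240 CPM against 67.8, 106 and 66.4 CPM. Rora was the 1 Purkinje member DESeq2 called, beside 0.356% of all genes called higher. Control males, at 616 to 1630 CPM for the list, lay near LeuR and below IleR, and ValR males, at 1990 to 6910 CPM, near IleR.

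Without LeuR 21 the Purkinje and granule medians were 1.05 and 1.23, and without both LeuR 19 and LeuR 21 they were 0.73 and 0.61, with all 30 genes above 0 in both fits. Cortex and forebrain genes had a median of -0.84 with 6 of 23 above 0, but 0 genes were without overlap. Their median was -0.13 in limma voom, with 11 above 0, -0.48 without LeuR 21, with 9 above 0, and -1.20 without LeuR 19, with 5 above 0. Brainstem and spinal cord genes had a median of -0.40 over all 6 libraries, of 0.27 in limma voom, with 19 of 30 above 0, of -0.91 without LeuR 21, with 6 above 0, and of 0.21 without LeuR 19, with 17 above 0. Hypothalamic genes had a median of -3.11, which was -0.16 without LeuR 21 and -2.06 in limma voom. The region score, cerebellar and brainstem minus forebrain genes in log2 units, was 1.53 ± 0.83 in IleR and -0.22 ± 2.52 in LeuR (SD, n = 3 each; two-sided exact permutation p = 0.2, smallest possible 0.1), against -5.81 to -3.10 in Control and 2.43 to 3.21 in ValR. The difference of 1.75 was 0.34 without LeuR 21. The part of tissue makeup in the gene values above was not tested beyond the fits with this score and without these libraries.

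**Figure D5:**
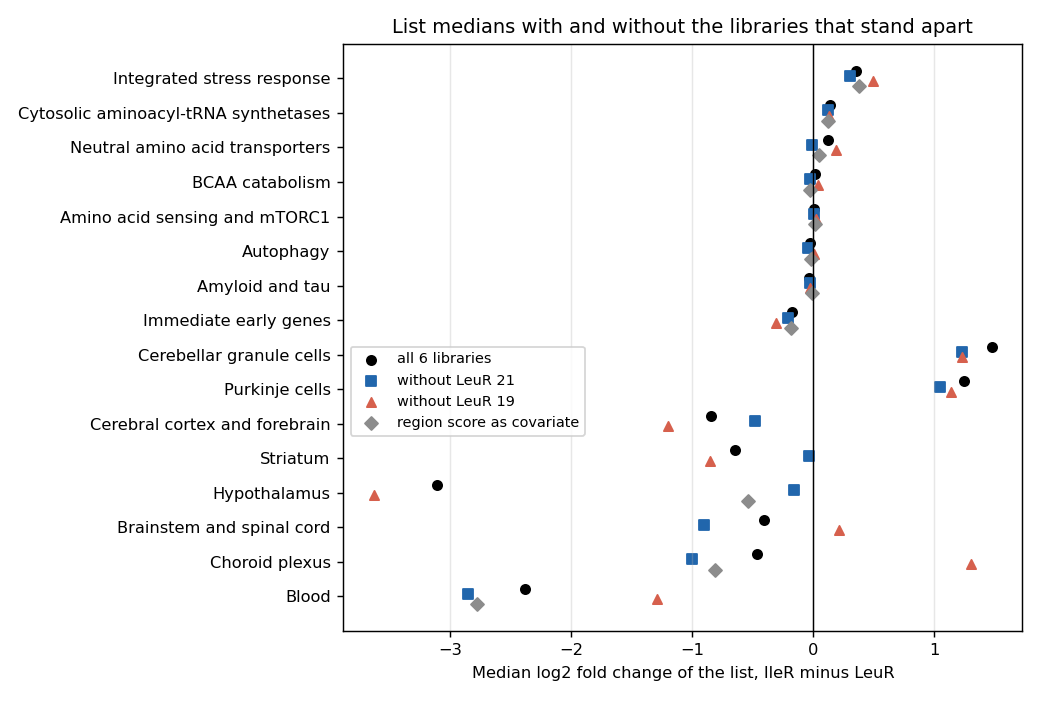
Median log2 fold change of each gene list, IleR relative to LeuR (horizontal axis), with all 6 libraries, without LeuR 21, without LeuR 19 and, for lists that are no part of that score, with the region score as a covariate. The stress response median stays between 0.30 and 0.49, the cerebellar medians shown lie above 1, and the hypothalamus, brainstem, striatum, forebrain and choroid plexus medians move across 0 or towards it without LeuR 21 or without LeuR 19.

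The genes described here that the study names for their diet response overlapped between IleR and LeuR. Crym, a thyroid hormone-binding protein, was at 14.1, 0.716 and 0.355 CPM in IleR and 0.940, 36.8 and 15.0 CPM in LeuR. LeuR 20 and LeuR 21 were the highest of the 6 libraries, and LeuR 19 lay near the lower IleR libraries.

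Hoxb3, a factor of hindbrain and spinal cord identity, was at 1.55, 3.54 and 0.592 CPM in IleR and at 17.4, 6.38 and 0 CPM in LeuR, with 389 counts in LeuR 19 and 0 in LeuR 21. Hoxa5 and Hoxc4 had the same order of LeuR libraries, at 9.13, 2.84 and 0 CPM and at 12.6, 3.00 and 0 CPM, with IleR between 0.118 and 2.11 CPM. Lhx1, which Purkinje cells express, was at 21.4, 30.7 and 49.0 CPM against 13.3, 25.7 and 9.82 CPM. The IleR values of the 3 Hox genes fell within the spread of LeuR, and for Lhx1 LeuR 20 lay between IleR 13 and IleR 14.

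The medians of the glial lists were -0.08 for 16 oligodendrocyte genes, 0.02 for 12 astrocyte genes and 0.03 for 21 microglial genes. Among microglial genes 9 of the 11 associated with the disease state had a log2 fold change above 0, with a median of 0.22, against 4 of the 10 homeostatic genes, with a median of -0.11. Without LeuR 21 these were 3 of 11, with a median of -0.07, and 2 of 10, with a median of -0.14, and without LeuR 19 they were 11 of 11, with a median of 0.69, and 5 of 10, with a median of 0.02. Itgax, a marker of the disease state, was the 1 gene without overlap, beside 9.38% of all genes, at 7.88, 5.12 and 6.93 CPM in IleR and 5.06, 3.23 and 2.37 CPM in LeuR. The median of all 21 was -0.11 without LeuR 21 and 0.28 without LeuR 19. That of the oligodendrocyte genes was -0.34 without LeuR 21, with 1 of 16 above 0, and 0.20 without LeuR 19, with 13 above 0, and 0.01 in limma voom, and that of the astrocyte genes -0.09 without LeuR 21 and 0.10 without LeuR 19.

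Blood genes had lower values in IleR, with 0 of 6 above 0 and a median of -2.38. Hbb-bs, a beta globin gene, was at 738, 508 and 716 CPM in IleR and at 7280, 2380 and 899 CPM in LeuR. The groups did not overlap for 3 of the 6 genes, beside 6.89% of all genes, and the median was -1.29 without LeuR 19. Choroid plexus genes had a median of -0.47, with 0 of 14 above 0, of 1.31 without LeuR 19 and of 0.48 in limma voom, with 11 above 0. Of 16 immediate early genes, which neurons switch on with activity, 3 had a log2 fold change above 0, with a median of -0.18. The median of these genes was -0.08 in limma voom, -0.21 without LeuR 21, -0.31 without LeuR 19 and -0.70 without both. Junb alone was without overlap, beside 6.89% of all genes. Control lay above both diets in summed level, at 434 to 1850 CPM against 174 to 266 CPM in IleR and 162 to 315 CPM in LeuR.

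The same contrast was fitted in females. edgeR called 0 of 20344 genes in either direction, with 621 (3.05%) higher and 629 (3.09%) lower, 1250 in all (6.14%), at an unadjusted p under 0.05. limma voom called 0 and DESeq2 called 11 higher (0.0541%) and 12 lower (0.059%). In the test of the difference between the sexes 0 of 22465 genes passed, with 992 (4.42%) positive and 1185 (5.27%) negative, 2177 in all (9.69%), at an unadjusted p under 0.05 and a smallest adjusted p of 0.321. The stress response median was -0.05 in females, with 12 of 31 genes above 0, beside 45.9% of all genes. The synthetases had 16 of 23 genes above 0. Region scores ranged from -4.59 to 0.88 in IleR females and from -4.76 to 3.75 in LeuR females. The part of tissue makeup in the female values was not tested.

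Atf5 in females ranged from 26.3 to 55.3 CPM in IleR (median 41.3, n = 5) and from 34.3 to 43.9 CPM in LeuR (median 40.7, n = 6), a log2 fold change of 0.01 (95% interval -0.27 to 0.29). The difference between the sexes in this contrast was 0.98 on the log2 scale for Atf5 (adjusted p = 0.321) and 1.17 for Abca1 (adjusted p = 0.412). Asns ranged from 110 to 141 CPM in IleR females and from 81.2 to 141 CPM in LeuR females, a log2 fold change of 0.25 (0.03 to 0.47, adjusted p = 0.801). For Asns the difference between the sexes was 0.29 (adjusted p = 0.571).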

How the data were processed

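RNA of 3xTg brains was sequenced, and the labels do not say whether each library is 1 mouse, while the study counts its male groups in mice and gives more per group than the 3 IleR and 3 LeuR libraries used here. The authors aligned reads to GRCm38.p5 (aligner not given in the sources used here), removed clear outliers after principal component analysis, and deposited expected counts per Ensembl gene without normalization. The labels describe polyA selection and the methods a total RNA kit, and the extraction protocol in the labels names liver beside a tissue label of brain. The submitters' processing notes name R 3.4.3, edgeR and limma. The authors also deposited tables comparing each diet with Control, which were not used. Of 24 male libraries, 10 are not analysed here.

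Expected counts were rounded. A gene was kept where each library of some diet had 1 count or more. All diets of a sex were fitted in 1 model (R 4.3.3, edgeR 4.0.16, TMM, quasi-likelihood test of IleR minus LeuR), with Benjamini-Hochberg adjustment over all genes and a threshold of 0.05. The sex difference was an interaction in 1 model of 37 libraries. CPM follow TMM. Intervals are 95%. Alternatives were DESeq2 1.42.0, limma voom (3.58.1), other normalizations and filters, fewer libraries, a region score covariate and each library left out. The fit was tested on simulated counts. P-values measure the spread between these libraries, and count intervals cover counting error only.

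Genes were named by rule: those past the threshold with the largest changes, filled up to 5 a direction by smallest p at a mean log2 CPM over 1, the highest-level members of each list, and fixed enzymes, sensors and study genes. Some genes that it picks are not reported here. Symbols came with 52083 of 55416 identifiers. Where 2 identifiers shared a symbol in a list, that of the higher level was taken. The members and lists were chosen with earlier results of these data known.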

Additional observations from a re-analysis of the deposited data

Results flagged for a closer look

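The levels of Asns, Shmt2 and the 10 genes of smallest p-value, with female total counts and region scores, were checked in 52 groups of 4 to 6 libraries for a library far from the others. In 3 groups there was one, and chance flags about 1 group in 20. Asns was at 141 CPM in the female library LeuR 47 and at 113 CPM in the male library ValR 9, and Dad1 was at 52.9 CPM in ValR 9. The male groups of 3 libraries were too small for this check.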

How the results depend on the processing

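In males, 0 genes were called in either direction under every edgeR and limma voom alternative, with smallest adjusted p between 0.128 and 0.827, whereas DESeq2 called 79 higher and 28 lower, and in females 11 and 12. DESeq2 called 4 stress response genes and 1 each of the Purkinje, hypothalamus and synthetase lists, against 0 in edgeR. Over all genes in males DESeq2 called 0.356% higher and 0.126% lower. The cause of the difference between the methods was not tested. The count at an unadjusted p under 0.05 ranged from 1316 (without IleR 17) to 3224 (without LeuR 20) and was 776 of 23648 without both LeuR 19 and LeuR 21, a fit chosen after seeing the data in which 1 LeuR library is assumed to vary like the other groups. Leaving out each of the 14 male libraries in turn gave 0 calls, and female libraries were not left out in turn. The total count was higher in IleR by 1725139 on average, from -1562416 without IleR 14 and -644560 without LeuR 20 to 4171780 without LeuR 19. Of 125 named genes 61 turned direction in some of the 25 alternatives, and 0 of these were among the 32 whose 95% interval left out 0. No paired analysis was possible because the replicate numbers in the labels are unique to each library. Depths of 12682687 to 25722333 counts leave genes of a few counts, such as Fgf21, with wide intervals.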

Other observations

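The lists in this section were chosen after their values were seen, so their counts describe these libraries. Enzymes of cholesterol synthesis lay lower in IleR than in LeuR: 0 of 20 had a log2 fold change above 0, the median was -0.45, and IleR libraries lay wholly below LeuR libraries for 11, beside 6.89% of all genes. Hmgcs1, which makes the precursor of mevalonate, was at 208, 201 and 149 CPM in IleR and 287, 254 and 262 CPM in LeuR, and Fdft1, the squalene synthase, at 65.6, 63.1 and 46.2 CPM against 95.8, 73.5 and 93.3 CPM. The summed level was 1094, 1041 and 835 CPM in IleR, 1508, 1263 and 1294 CPM in LeuR, 1120 to 1260 CPM in Control and 819 to 1090 CPM in ValR. DESeq2 called Mvk, Sqle and Fdps, beside 0.126% of all genes, and edgeR called 0. The median was -0.49 without LeuR 21 and -0.34 without LeuR 19. In females 20 of 20 genes had a log2 fold change above 0, with a median of 0.20.

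Of 17 glycolytic genes, IleR libraries lay wholly below LeuR libraries for 8 and wholly above for 1 (Hk2), beside 6.89% and 9.38% of all genes, with 16 of 17 below 0 and a median of -0.18. The median was -0.22 without LeuR 21, with 1 gene above 0, and -0.11 without LeuR 19, with 4 above 0. Ldha, which makes lactate, was at 107, 101 and 107 CPM in IleR and 149, 126 and 170 CPM in LeuR, and Tpi1, the triose isomerase, at 374, 372 and 351 CPM against 506, 429 and 452 CPM. DESeq2 called Pfkl, Tpi1, Eno1 and Ldha, beside 0.126% of all genes, and edgeR called 0. In females 12 of 17 genes had a log2 fold change above 0, with a median of 0.08.

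Of 8 genes of B lymphocytes, IleR libraries lay wholly below LeuR libraries for 5 and wholly above for 1 (Pax5), beside 6.89% and 9.38% of all genes. Their summed level overlapped, at 35.6, 32.4 and 14.6 CPM in IleR and 53.0, 40.9 and 15.9 CPM in LeuR. Ms4a1, which encodes CD20, had 0 counts in each IleR library and 20, 3 and 8 in LeuR 19, 20 and 21. Ighd, the immunoglobulin D heavy chain, had 3, 3 and 1 counts against 71, 20 and 15. DESeq2 called Ighd alone (adjusted p = 0.018), beside 0.126% of all genes, and edgeR called 0. Ighm, the immunoglobulin M heavy chain and the member of most counts, overlapped, with 340, 431 and 77 counts against 757, 434 and 213. Pax5, a B cell factor that the brain also expresses, had the opposite order, at 10.7, 13.1 and 6.69 CPM against 5.42, 1.46 and 0.395 CPM. Blood genes were also highest in LeuR 19, and their part in these counts was not tested.

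Longer genes had higher values in IleR. The 13311 protein-coding genes were put in 4 equal parts by exonic length. From the shortest to the longest part the median log2 fold change was -0.08, -0.05, -0.02 and 0.08. At an unadjusted p under 0.05, 84, 159, 237 and 550 genes were higher (2.52%, 4.78%, 7.12% and 16.5%). Those lower numbered 229, 186, 165 and 97 (6.88%, 5.59%, 4.96% and 2.92%). Over all genes tested the shares were 6.56% and 4.75%. The mean of log2(CPM + 1) over the longest part minus that over the shortest was 1.37, 1.38 and 1.42 in IleR and 1.15, 1.29 and 1.24 in LeuR, with no overlap, and 1.34 to 1.59 in Control and 1.33 to 1.51 in ValR. The median exonic length was 3292 bases for the stress response genes and 4315 bases for the cholesterol genes. Atf5 had 1993 bases, and the lengths of the other leading genes are not given here. The median lengths of the 4 parts were 2160, 3826, 5733 and 9500 bases. The part of gene length in the gene values above was not tested.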
